A study of Mus musculus with 16 samples.

Results

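Genes of the lysosome were followed in RNA of exosomes and of the cells that released them. They comprise 31 named genes of the lysosomal membrane, of its hydrolases and of their lipid-binding partners, together with every gene whose symbol marks it as a subunit or accessory protein of the vacuolar proton pump. Probe sets annotated with a single symbol of this set numbered 118, of 45037 probe sets on the array, and they measured 53 genes, of which 22 belonged to the proton pump, 10 were proteases, 8 membrane proteins, 7 glycosidases and 5 lipid hydrolases or lipid-binding proteins, and 1 was the transcription factor Tfeb. The material came from MC/9, a line of mouse mast cells, which are immune cells that store mediators in secretory granules related to lysosomes. RNA was taken from cells and from exosomes, vesicles that were pelleted from filtered culture medium by ultracentrifugation. The 16 arrays fell into 4 groups of 4, namely exosomes of H2O2-treated cells (oxi exo), exosomes of normal conditions (norm exo), H2O2-treated cells (oxi cell) and cells of normal conditions (norm cell). Treatment was with 125 µM H2O2 for 24 h, and all cultures, untreated ones included, were grown with serum and a supernatant of stimulated rat spleen cells. The sample descriptions call the cells recipients of exosomes, whereas the study used them as the donor cells, and the study's use was followed. MC/9 is a single line, and each group stands for that line only.

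Lysosomes break down proteins, sugars and lipids with acid hydrolases, and the acid is supplied by the V-ATPase, a rotary proton pump made of a V1 sector that hydrolyses ATP and a V0 sector that carries protons through the membrane. Most soluble hydrolases are tagged with mannose 6-phosphate in the Golgi and carried to the lysosome by receptors, while membrane proteins such as LAMP1 line the organelle. The transcription factor TFEB is known to switch on many of these genes together, through a palindromic promoter element called CLEAR, and exosomes themselves form in late endosomes, which either fuse with lysosomes or release their vesicles.

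Among the 42 of 53 genes for which RefSeq promoters (build GRCm38.p6, 250 bases before to 50 after the start of the gene) were matched, the palindrome CACGTG was found in 13, or 31.0%, against 8.09% of all 27025 genes with a promoter. The longer palindrome TCACGTGA, the core of the CLEAR element, was found in 7, or 16.7%, against 1.12% of all genes. The element is already known from many of these genes, so the shares describe the list and test nothing. Both motifs read the same on either strand, and every TCACGTGA also holds a CACGTG. The stretches around the longer palindrome are shown because these 7 genes are the members with the most typical element, and they moved in different directions in treated cells. Each runs 5′ to 3′ on the strand of its gene, with the motif in capitals. Gla has 2 copies in its promoter window, of which only 1 lies whole in the stretch shown, and that stretch is shorter than the others.
Ctsa, chr2:164833730-164833797, plus strand: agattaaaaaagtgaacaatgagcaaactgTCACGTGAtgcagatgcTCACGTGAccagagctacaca
Ctsd, chr7:142387889-142387956, minus strand: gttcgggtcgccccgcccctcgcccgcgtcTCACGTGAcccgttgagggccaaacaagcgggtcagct
Mcoln1, chr8:3500443-3500510, plus strand: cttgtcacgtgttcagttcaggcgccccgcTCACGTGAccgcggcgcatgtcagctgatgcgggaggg
Atp6v0d1, chr8:105566031-105566098, minus strand: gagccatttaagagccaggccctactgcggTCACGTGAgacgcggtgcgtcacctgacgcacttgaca
Atp6v1a, chr16:44139354-44139421, minus strand: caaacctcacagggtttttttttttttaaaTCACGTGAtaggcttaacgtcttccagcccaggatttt
Atp6v0e, chr17:26676368-26676435, plus strand: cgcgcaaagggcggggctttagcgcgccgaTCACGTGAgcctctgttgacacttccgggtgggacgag
Gla, chrX:134601196-134601255, minus strand: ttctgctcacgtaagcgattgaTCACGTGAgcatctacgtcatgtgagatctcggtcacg
In treated cells Atp6v0d1 and Gla rose and Ctsa fell, and Ctsd, Mcoln1, Atp6v1a and Atp6v0e were not called. CACGTG was found in 3 of the 8 rising, 1 of the 6 falling and 9 of the 28 uncalled genes that had a promoter, which describes letters in these windows and not binding.

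The deposited signals had been scaled to the same trimmed mean on every array, and the level at which a probe set stood out therefore differed between sample types. The background of an array was taken as the 95th percentile of signals from 282 probe sets for 238 genes that other organs use. It averaged 255 ± 20.9 in oxi exo and 224 ± 13.1 in norm exo, against 12.9 ± 1.57 in oxi cell and 14.7 ± 2.32 in norm cell (SD, n = 4 each). Control RNA spiked at fixed amounts was 19.6 times brighter in oxi exo than in oxi cell and 16.2 times brighter in norm exo than in norm cell. From such values in bulk RNA, fewer vesicles or cells, less RNA in each and less labelled RNA on the array cannot be told apart. The 3′ over 5′ signal of Gapdh was 1.89 ± 0.373 in oxi exo and 1.64 ± 0.152 in norm exo, against 0.851 ± 0.0220 in oxi cell and 0.832 ± 0.00767 in norm cell, and neither the exosome pair (exact two-sided permutation p = 0.286) nor the cell pair (exact p = 0.0571) passed 0.05, the smallest p for 4 against 4 being 0.0286. For actin the ratio was 3.86 ± 0.776 in oxi exo and 5.35 ± 1.23 in norm exo (exact p = 0.143), against 1.38 ± 0.113 in oxi cell and 1.43 ± 0.0193 in norm cell (exact p = 0.457), so exosome arrays had higher ratios than cell arrays for both genes and the exosome groups differed in opposite directions. After Benjamini-Hochberg adjustment over these 4 tests the lowest p was 0.229. Of 14 mast cell markers, 13 were above background on all arrays of oxi cell and 12 on those of norm cell, whereas of 13 macrophage markers 3 and 2 were, of 10 T lymphocyte markers 2 and none, and no fibroblast marker was in any group. In exosomes 2 mast cell markers passed in oxi exo and 7 in norm exo, no macrophage marker did, and of the T lymphocyte markers Zap70, which relays signals of the T cell antigen receptor, passed in both groups (1089 ± 233 in oxi exo and 807 ± 55.8 in norm exo). The labels do not say which replicates came from separate cultures, and the study describes only a pair of norm cell and a pair of norm exo samples as different cultures. The p-values therefore measure the spread between these arrays, which may be technical in part, and the number of arrays limits their precision.

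The lysosomal genes were well measured in cells and sparse in exosomes. Probe sets above background on all 4 arrays numbered 83 of 118 in oxi cell and 80 in norm cell, and these measured 42 of 53 genes in each group. In oxi exo they numbered 5 and in norm exo 16, for 4 and 11 genes. Few probe sets of any kind passed in exosomes. Among all 45037 probe sets, 44.2% passed in oxi cell, 44.4% in norm cell, 2.86% in oxi exo and 4.96% in norm exo. The shares of the members were 70.3%, 67.8%, 4.24% and 13.6% in the same order, higher in every group. The 9 genes that passed in neither cell group were the pump subunits Atp6v0a4, Atp6v0d2, Atp6v1b1, Atp6v1c2 and Atp6v1e2, isoforms known from kidney, bone, epithelia or testis, and the proteases Ctsh, Ctsl, Ctss and Lgmn, which are abundant in macrophages and other antigen-presenting cells. The pump in these cells was thus measured through its widely expressed subunits, and the protease set through cathepsins A, B, C, D and Z and the tripeptidyl peptidase Tpp1. Cathepsin C, which activates the serine proteases of mast cell granules, had a signal of 3131 ± 269.8 in oxi cell and 3142 ± 108 in norm cell (SD, n = 4 each), and its log2 difference of -0.01 ± 0.06 (SE, limma, adjusted p = 0.962) was within the spread.

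In exosomes, H2O2 treatment of the donor cells was followed by lower signals of several lysosomal transcripts and by no called rise. The membrane protein gene Laptm5, the pump subunit genes Atp6v1c1 and Atp6v0b, the protease gene Ctsc, the glycosidase gene Hexa and the cholesterol carrier gene Npc2 were lower in oxi exo, through 8 of the 118 probe sets in limma at an adjusted p of 0.05. Among all 45037 probe sets 1.7% were lower and 0.0311% higher. None of the members was higher, and none in the methods' t-test after adjustment, whereas 3 were higher and 21 lower at an unadjusted p of 0.05 in limma. Most probe sets lie in the background here, and of those whose mean over the 8 arrays was above it, 6 of 17 members were lower, against 21% of all 2838. The median log2 difference was -0.18 over the members and 0.06 over all probe sets.

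Laptm5 encodes a lysosomal transmembrane protein of blood cells that dampens antigen receptor signalling in lymphocytes. Its brightest probe set gave 564, 695, 445 and 266 in oxi exo, against 4159, 3901, 2023 and 2568 in norm exo. Every oxi exo array was below every norm exo array, and the log2 difference was -2.71 ± 0.21 (adjusted p = 3.64e-05). The call held without any pair of arrays of the same number, with adjusted p of 2.61e-05 to 0.00107.

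The probe sets of Laptm5 disagreed. The second brightest probe set, which was above background on all 16 arrays, read 403, 651, 327 and 560.1 in oxi exo and 762, 518, 468 and 522 in norm exo, with overlapping arrays and a log2 difference of -0.25 ± 0.26 (adjusted p = 0.813). The signal of the brightest over that of the second probe set was 1.08 ± 0.427 in oxi exo and 5.55 ± 1.39 in norm exo, whereas it was 1.57 ± 0.149 in oxi cell and 1.58 ± 0.168 in norm cell (SD, n = 4 each). Every norm exo array had a higher ratio than any array of the other 3 groups. The name of the brightest probe set ends in x_at, which marks probes that may also match other transcripts, and the part of such matches was not tested. In cells, by contrast, 4 of the 5 Laptm5 probe sets were lower after treatment, and the fifth, which was close to background there, was not called. Of these 4 calls, 2 were near the threshold (adjusted p = 0.0427 and 0.044). Only the call of the brightest probe set was kept without each replicate number in turn, and it was lost with scaling to spiked controls.

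**Figure D1:**
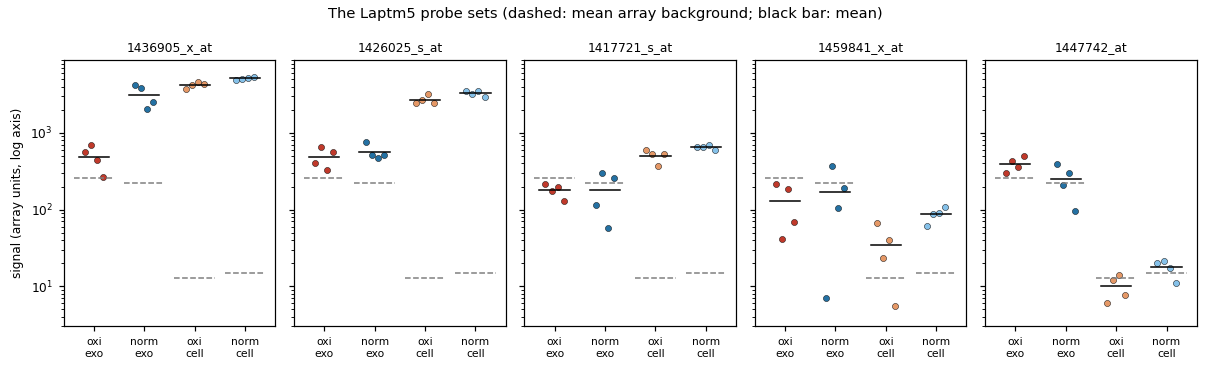
Signal (array units, log axis) of each Laptm5 probe set on the 16 arrays, from left to right by their level in norm cell, with oxi exo, norm exo, oxi cell and norm cell side by side; black bars are means of 4 arrays and dashed lines the mean array background. In the leftmost panel the oxi exo arrays (266 to 695) lie below all norm exo arrays (2023 to 4159), while in the other 4 panels these groups overlap.

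The pump genes that fell in exosomes encode a subunit of each sector. Atp6v1c1, the C subunit that links the V1 sector to the membrane part, gave 112, 152, 32.1 and 137 in oxi exo, against 542, 464, 307 and 438 in norm exo. No oxi exo array was above background for it, and the bound given by the background levels there was a fall of at least 1.69-fold (adjusted p = 0.00264). Here and below, the adjusted p beside a bound is that of the log2 difference of the signals as deposited and does not test the bound. A further probe set of the gene was lower as well, by a log2 difference of -1.35 ± 0.32 (adjusted p = 0.0377), with overlapping arrays. Atp6v0b, a part of the proton-carrying ring of the V0 sector, read 225, 509, 362 and 121 in oxi exo and 1008, 713, 661 and 1095 in norm exo. These arrays did not overlap, and the log2 difference was -1.67 ± 0.35 (adjusted p = 0.0173). Its second probe set had a log2 difference of -1.97 ± 0.29 (adjusted p = 0.000842), while the third, the only one above background on all 8 exosome arrays, was not called. It averaged 452 ± 47.9 in oxi exo and 655 ± 176 in norm exo, with overlapping arrays and a log2 difference of -0.49 (adjusted p = 0.549). The other 20 pump genes were not called.

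Of the hydrolases and lipid proteins, Hexa, the alpha subunit of the enzyme that degrades GM2 ganglioside, read 201, 423, 181 and 157 in oxi exo and 698, 772, 529 and 441 in norm exo, which did not overlap. Its log2 difference was -1.43 ± 0.27 (adjusted p = 0.00684). Ctsc gave 108, 101, 82.0 and 99.2 in oxi exo, none of them above background, against 342, 389, 348 and 241 in norm exo, and was at least 1.28-fold lower (adjusted p = 0.0144). Npc2, which hands cholesterol to the membrane protein NPC1, read 126, 152, 209 and 247 in oxi exo and 1028, 962, 319 and 503 in norm exo. It was below background in all of oxi exo and at least 2.49-fold lower there (adjusted p = 0.0117), and a further probe set of it missed the threshold (adjusted p = 0.058).

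Genes that were above background in an exosome group and did not pass the test were Ctsd, Lamp1, Psap, Smpd1 and Laptm4b. Of the 11 genes detected in an exosome group, 4 were detected in oxi exo, and most entered through norm exo only. Such a choice favours lower values in oxi exo, so a shared direction among the 11 adds no support. Ctsd, an aspartic protease of nearly all cells, gave 362, 309, 387 and 161 in oxi exo, against 802, 586, 505 and 549.8 in norm exo, without overlap, and its log2 difference of -1.06 ± 0.27 missed the threshold (adjusted p = 0.0671). Lamp1, the marker protein of the lysosomal membrane, read 269, 415, 339 and 272 in oxi exo and 632, 637, 302 and 401 in norm exo, with overlap (-0.56 ± 0.28, adjusted p = 0.536). Psap, the precursor of the saposins that help to degrade sphingolipids, read 189.8, 115, 228 and 167 in oxi exo, with no array above background, against 344, 247, 292 and 265 in norm exo (adjusted p = 0.454). Smpd1, the acid sphingomyelinase, averaged 209 ± 62.9 in oxi exo and 344 ± 51.7 in norm exo, with overlapping arrays (-0.75 ± 0.30, adjusted p = 0.387). Laptm4b, a relative of Laptm5 that occurs in many tissues, differed in pattern, with 633, 324, 317 and 495 in oxi exo and 541, 426, 341 and 347 in norm exo. These overlapped, with a log2 difference of 0.06 ± 0.26 (adjusted p = 0.967).

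**Figure D2:**
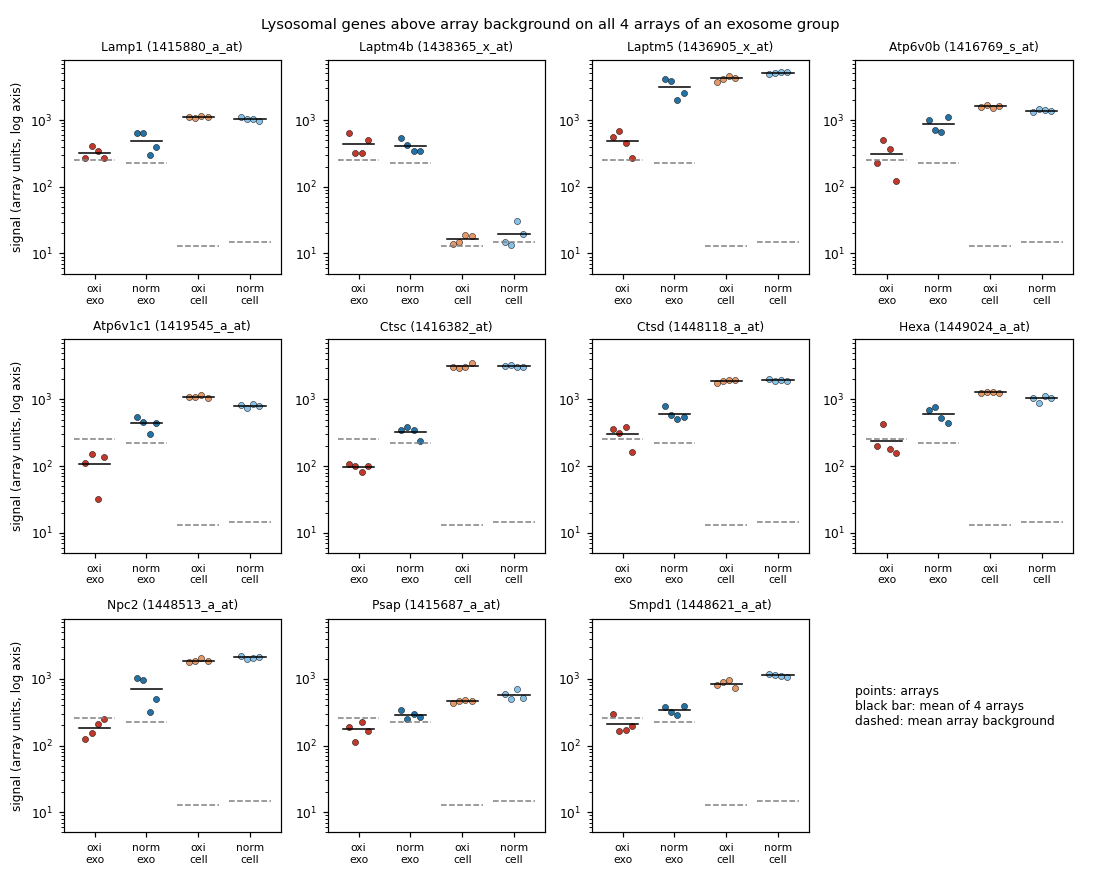
Signal (array units, log axis) of the 11 genes that were above background on all arrays of an exosome group, one panel per gene by its brightest probe set, with oxi exo, norm exo, oxi cell and norm cell side by side; points are arrays, black bars means of 4 and dashed lines the mean array background. The oxi exo points of Ctsc, Npc2, Atp6v1c1 and Psap lie at or under the background line of 255, and Laptm4b is the only gene of the 11 whose exosome signals exceed those of cells, which was not called with scaling to spiked controls. Most of the 11 entered through norm exo only, which favours lower oxi exo points.

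The spread between norm exo arrays bore on these calls. For 7 of the 11 genes detected in exosomes, norm exo 1 and norm exo 2 were both above norm exo 3 and norm exo 4. Without the pair of number 1, 3 probe sets were still called, and Atp6v0b (adjusted p = 0.122), Ctsc (0.0588), Hexa (0.0515) and Npc2 (0.112) were no longer called in limma. Without number 2 this held for Ctsc (adjusted p = 0.0749) and Npc2 (0.0763), without number 3 for Ctsc (0.0581), and without number 4 for Atp6v0b (0.0961). The calls of Laptm5 and Atp6v1c1 were kept in all 4 cases. With quantile normalization Atp6v0b (adjusted p = 0.12) and Hexa (0.0626) were not called, and the other 4 genes were. With number 3 left out, Ctsd was called too (adjusted p = 0.0304). Of 14 mast cell marker genes, 5 were lower in oxi exo and none higher. Among all probe sets 1.7% were lower, and 21% among those of a mean above background. The summed signal of the markers was 1958 to 2986 in oxi exo against 4765 to 7621 in norm exo. What part the fall of these markers plays in the lysosomal values was not tested.

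In cells, treatment was followed by calls of lysosomal genes in both directions. Some genes of the proton pump and some glycosidases rose, whereas 2 lipid genes, the peptidases Ctsa and Tpp1, the mannosidase Man2b1 and Laptm5 fell. Of the 118 probe sets 12 were lower and 20 higher, against 5.51% lower and 4.31% higher among all probe sets, or 11.1% lower and 8.94% higher among the 21508 whose mean was above background. The 12 and 20 were all among the 88 members whose mean was above it, so the lower ones were near the share of all such probe sets. By genes, 6 of 53 were lower and 10 higher, and in all 16 the oxi cell and norm cell arrays did not overlap. The 16 were picked by their p-values on these same arrays, so the lack of overlap adds no support. Its share over all probe sets was not counted. The median log2 difference was -0.07 over the members and -0.15 over all probe sets. Where arrays were scaled to the spiked controls instead, the median of all probe sets was 0.13 and the members called were 3 lower and 42 higher. Under that scaling Man2b1 was still lower, Tpp1 turned to a log2 difference of 0.09, and neither Tpp1 nor the other 4 falling genes were called. Without replicate 4, 7 probe sets were lower.

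In the pump, 5 of 22 genes rose and none fell. The median log2 difference of the 22 was 0.08. With quantile normalization 4 rose and 1 fell, and with scaling to spiked controls 12 rose and none fell. Atp6ap2, an accessory protein of the pump that is also known as the prorenin receptor, read 1693, 1699, 1778 and 1870.0 in oxi cell and 1364, 1263, 1246 and 1283 in norm cell. Its log2 difference was 0.45 ± 0.06 (adjusted p = 0.00067), and the further 2 probe sets of the gene rose by 0.40 and 0.47. Atp6v1c1 read 1075, 1074, 1147 and 1043 in oxi cell and 835, 741, 850.2 and 784 in norm cell, a rise of 0.44 ± 0.05 (adjusted p = 0.000688), and all 3 of its probe sets rose. The gene that was lower in oxi exo was thus higher in oxi cell.

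Atp6v0d1, which couples the stalk of the V1 sector to the V0 ring, read 959, 937, 1006 and 905 in oxi cell and 743, 713, 717 and 712 in norm cell. Its rise was 0.40 ± 0.05 (adjusted p = 0.00107). Atp6v1h, a regulatory subunit of the V1 sector, gave 736, 625, 651 and 621 in oxi cell and 608, 444, 568 and 481 in norm cell, a rise of 0.33 ± 0.06 (adjusted p = 0.00683). Atp6v0b read 1590.0, 1700.3, 1522 and 1607 in oxi cell and 1319, 1459.7, 1418 and 1349 in norm cell, a rise of 0.21 ± 0.05 (adjusted p = 0.0274), which was lost with quantile normalization (adjusted p = 0.113) and without replicate 1 (0.0902), 2 (0.102) or 4 (0.140). Its probe sets disagreed in direction, since the second rose by 0.37 ± 0.06 (adjusted p = 0.00193) and the third fell by 0.47 on the log2 scale (adjusted p = 0.0063). The catalytic subunit Atp6v1a and the stalk subunit Atp6v1d each had a probe set that rose, by 0.34 ± 0.07 in Atp6v1a (adjusted p = 0.00682) and by 0.40 ± 0.06 in Atp6v1d (adjusted p = 0.0021), while the brightest probe sets of both, at 0.27 ± 0.08 (adjusted p = 0.0677) and 0.13 ± 0.06 (adjusted p = 0.202), were not called. Of the other pump genes above background in cells, none was called. Atp6v1g2 (-0.83, adjusted p = 0.139) and Atp6v0e2 (0.78, adjusted p = 0.183) lay farthest out, and the rest between -0.17 for Atp6v1f and 0.20 for Atp6v0a2.

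Among glycosidases, 3 of 7 genes rose and 1 fell. Gusb, the beta-glucuronidase, read 757, 689, 675 and 749.8 in oxi cell, against 484, 501, 491 and 524 in norm cell, a rise of 0.52 ± 0.06 (adjusted p = 0.000419). Gla, the alpha-galactosidase A that is lacking in Fabry disease, read 116, 119.7, 111 and 117 in oxi cell and 88.5, 89.7, 69.8 and 69.8 in norm cell, a rise of 0.56 ± 0.11 (adjusted p = 0.00638). Hexa read 1256, 1277, 1293 and 1264 in oxi cell and 1044, 894, 1138 and 1065 in norm cell, a rise of 0.30 ± 0.06 (adjusted p = 0.0104) that was lost without replicate 2 (adjusted p = 0.0606). In the opposite direction, Man2b1, the acid alpha-mannosidase, read 956, 979.9, 1052 and 886 in oxi cell, against 1644, 1595, 1699 and 1541 in norm cell. Its log2 difference of -0.74 ± 0.05 (adjusted p = 3.07e-05) was the lowest of the genes called, and its dim probe set was lower too (-1.27 ± 0.26, adjusted p = 0.00974). A probe set of Gaa, the acid alpha-glucosidase, rose by 0.42 ± 0.08 (adjusted p = 0.00549), whereas the brighter one stood at -0.11 ± 0.08 (adjusted p = 0.497).

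Of the 10 proteases, Ctsz rose and Ctsa and Tpp1 fell. Ctsz, a carboxypeptidase of the papain family, read 1413, 1703, 1539.6 and 1527 in oxi cell and 1287, 983, 1269 and 1003 in norm cell. Its rise of 0.45 ± 0.09 (adjusted p = 0.00937) was shared by its other 2 probe sets (0.31 and 0.27), and it missed the threshold without replicate 2 (adjusted p = 0.0506) or 4 (0.0625). Ctsa, a serine carboxypeptidase that also protects Neu1 and Glb1 in a complex, read 548, 587, 560.3 and 553 in oxi cell and 750.2, 707, 733 and 650.1 in norm cell. It was lower by -0.34 ± 0.06 (adjusted p = 0.00481), although with scaling to spiked controls the value was -0.06 (adjusted p = 0.727), while its partners in that complex were not called, Neu1 at 0.20 ± 0.12 and Glb1 at -0.13 ± 0.06. Tpp1 read 1646, 1655, 1702 and 1678 in oxi cell and 1869, 1963, 1941 and 1864 in norm cell, a difference of -0.19 ± 0.05 (adjusted p = 0.0314) that was above the threshold without any of the 4 replicates in turn (0.0674 to 0.136) and turned to 0.09 with scaling to spiked controls. The dimmer probe set of Tpp1 was lower by a log2 difference of -0.33 ± 0.06 (adjusted p = 0.00787), with 278 to 321 in oxi cell and 338 to 434 in norm cell, and its call was kept without each replicate in turn. Cathepsins B and D, at -0.09 ± 0.06 and -0.03 ± 0.06, were not called.

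All 5 genes of lipid breakdown had negative differences on the deposited scale, and 2 were called, whereas with scaling to spiked controls none was and their median turned to 0.13. On both scales the median of all probe sets was about the same as theirs, at -0.15 for both as deposited and 0.13 for both with spiked controls. With quantile normalization the median of the 5 was -0.20, with 3 called lower, against 0.0015 over all probe sets. Smpd1 read 804, 887, 955 and 732 in oxi cell and 1170.3, 1146, 1113 and 1072 in norm cell (-0.42 ± 0.07, adjusted p = 0.00211), and with scaling to spiked controls the value was -0.14 (adjusted p = 0.191). Psap read 439, 471, 475 and 463 in oxi cell and 598, 497, 701 and 514 in norm cell (-0.31 ± 0.08, adjusted p = 0.0355). The call of Psap was lost without replicate 1 (adjusted p = 0.149), 3 (0.134) or 4 (0.0549) and with scaling to spiked controls (adjusted p = 0.901). Npc2, the acid ceramidase Asah1 and the palmitoyl thioesterase Ppt1 lay at -0.15, -0.12 and -0.13 and were not called.

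Of the 8 membrane protein genes, Scarb2 rose and Laptm5 fell. Laptm5 read 3691, 4166, 4644 and 4325 in oxi cell and 4968, 5083, 5219.8 and 5299 in norm cell, a difference of -0.29 ± 0.05 (adjusted p = 0.00586), against -0.02 with scaling to spiked controls (adjusted p = 0.925). Scarb2, the LIMP-2 protein that carries glucocerebrosidase to the lysosome, was near background, with 32.6, 25.9, 28.9 and 30.8 in oxi cell and 13.0 to 16.3 in norm cell, of which 2 arrays were above it. Its difference of 0.99 ± 0.24 (adjusted p = 0.024) missed the threshold without each of the 4 replicates (0.0517 to 0.0993), and a further probe set of it stood at -0.01 ± 0.27. Lamp1 (0.10 ± 0.06), Lamp2 (0.10 ± 0.06), the calcium channel Mcoln1 (-0.08 ± 0.12) and the cholesterol exporter Npc1 (0.14 ± 0.12) were not called. Tfeb was not called either, at 19.6 ± 10.4 in oxi cell and 29.5 ± 7.63 in norm cell (-0.75 ± 0.32, adjusted p = 0.19). Mast cell markers moved in cells as well, with 8 of 14 lower and 2 higher in oxi cell, against 11.1% lower and 8.94% higher among all probe sets above background, and their part in the lysosomal values was not tested.

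**Figure D3:**
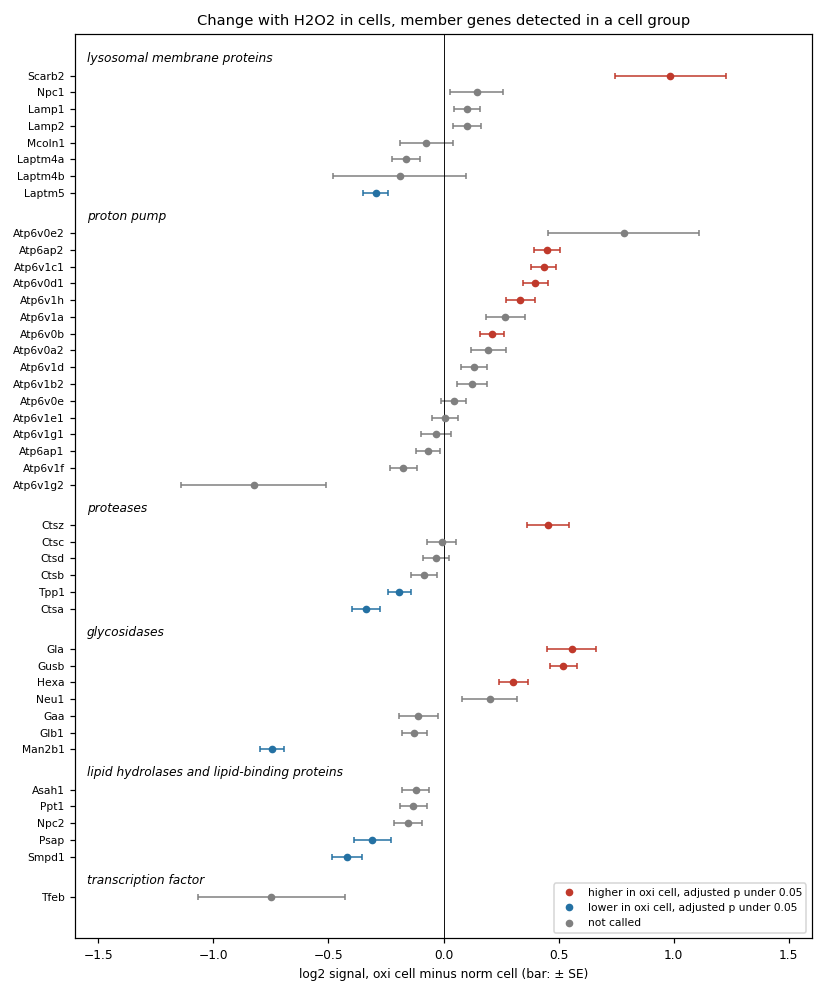
Log2 signal of oxi cell minus norm cell (dots, with ± SE as bars) for the 43 genes above background on all arrays of a cell group, by role, in red where higher and blue where lower in limma at an adjusted p of 0.05. The pump genes lie mostly right of 0, up to 0.45 among those called, and all 5 lipid genes lie left of it, which for these 5 turned to a median of 0.13 with scaling to spiked controls. The median of all probe sets was -0.15 on the scale shown and 0.13 with that scaling.

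A ratio of signals within an array does not depend on the scale factor of that array. The summed signal of the 22 pump genes over that of the 22 protease, glycosidase and lipid genes was 0.829, 0.801, 0.807 and 0.807 in oxi cell, against 0.704, 0.700, 0.679 and 0.720 in norm cell. The means were 0.811 ± 0.0125 in oxi cell and 0.701 ± 0.0169 in norm cell (SD, n = 4 each), and every oxi cell array was above every norm cell array. In exosomes the ratio was 0.969 ± 0.125 in oxi exo and 0.944 ± 0.0954 in norm exo, with overlap, and most of its terms there were background. Bright probe sets dominate these sums, so the ratio describes summed signal and not the typical gene. By gene, the median log2 difference in cells was 0.20 for the 7 glycosidases, which are part of the denominator, and 0.08 for the pump.

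**Figure D4:**
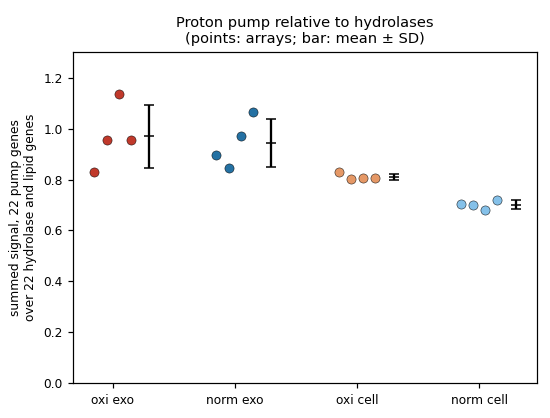
Summed signal of 22 pump genes over that of 22 hydrolase and lipid genes (vertical axis, a ratio) on each array of oxi exo, norm exo, oxi cell and norm cell; bars are mean ± SD of 4 arrays. The oxi cell arrays (0.801 to 0.829) lie above the norm cell arrays (0.679 to 0.720), and the exosome groups overlap.

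Lists of further lysosomal genes were set beside these. In cells, 5.51% of all probe sets were called lower and 4.31% higher, or 11.1% and 8.94% of those above background. The lists count genes, including some that were dim in cells, so neither share is a like measure. Of 29 genes of late endosome fusion and lysosome-related organelles, 5 rose and 1 fell in treated cells, among them Bloc1s2, a subunit of the BLOC-1 and BORC complexes (635 ± 10.1 in oxi cell and 393 ± 14.9 in norm cell, log2 difference 0.69 ± 0.06, adjusted p = 8.68e-05), and Rab7, the GTPase of late endosomes (0.22 ± 0.06, adjusted p = 0.0286). The faller was Lyst, the Chediak-Higashi gene (-0.34 ± 0.09, adjusted p = 0.0397). Of 15 genes of mannose 6-phosphate tagging and sorting 2 rose and none fell, both of them adaptor subunits, Ap1s1 and Ap3b1. Of 35 further hydrolases and their activators 3 fell and 2 rose, of which Ctse, an aspartic protease, fell most (164 ± 20.3 in oxi cell and 378 ± 39.7 in norm cell, -1.21 ± 0.10, adjusted p = 7.07e-05). Of 28 further membrane proteins 3 fell and 1 rose, and of 25 genes of nutrient sensing at the lysosome 1 fell (Flcn) and 1 rose (Sesn2). The medians of these lists, in the order given, were 0.09, 0.08, -0.12, -0.16 and 0.02, against -0.15 over all probe sets. In oxi exo against norm exo, Grn, the precursor of granulins, was lower (357 ± 80.9 in oxi exo and 1287 ± 495 in norm exo, -1.79 ± 0.24, adjusted p = 0.000527). The Ragulator subunit Lamtor5 (-1.18 ± 0.27, adjusted p = 0.0307) and the sorting adaptor Gga2 (-1.17 ± 0.29, adjusted p = 0.04996, just under the threshold) were lower too. No other gene of the 5 lists was called, and these few calls stand beside 1.7% lower and 0.0311% higher among all probe sets in exosomes.

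Exosomes differed from cells in most members, but the direction depended on how the arrays were scaled. In norm exo against norm cell, 61 probe sets were lower and 37 higher, against 19% lower and 57.7% higher among all probe sets, and the median log2 difference was -0.84 over the members and 2.23 over all. In oxi exo against oxi cell, 61 were lower and 39 higher, against 19.4% and 60.8% among all probe sets, with medians of -1.27 and 2.67. After quantile normalization the splits were 51 lower and 15 higher in norm exo and 63 and 13 in oxi exo, and with scaling to spiked controls 88 and 0 in norm exo and 88 and 2 in oxi exo. Of the 39 members called higher in oxi exo on the deposited scale, 33 were above background on no oxi exo array, and of the 37 called higher in norm exo, 29 were above it on no norm exo array. Those above it on all 4 arrays were probe sets of Laptm4b and Laptm5 in oxi exo and of Laptm4b and Atp6v0b in norm exo.

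Genes that were measured in cells, were lower in exosomes and were not above background on any array of the exosome group allow only a bound. Of 18 such genes in norm exo, 12 had a bound above 1, and the other 6, such as Tfeb, were too dim in cells for a fold. Some of the 6 read higher in exosomes on the deposited scale, as Tfeb did (105 in norm exo and 29.5 in norm cell, adjusted p = 0.0196). Of the 12, Atp6v0e, a small subunit of the V0 sector, had the largest bound, with a signal of 75.8 in norm exo and 1513 in norm cell, at least 6.76-fold lower (adjusted p = 2.61e-05). Ctsb, at 113 in norm exo and 1296 in norm cell, was at least 5.78-fold lower (adjusted p = 2.97e-06), and Ctsz at least 5.04-fold lower (adjusted p = 2.13e-05). Of 28 such genes in oxi exo, 21 had a bound above 1, and the largest was that of Ctsc, at 97.6 in oxi exo and 3131 in oxi cell, at least 12.3-fold lower (adjusted p = 5e-06). These bounds are on the deposited scale, on which exosome arrays are brighter as a whole, and the adjusted p-values beside them do not test the bounds.

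Among genes above background in norm exo, those nearest to their level in cells on the deposited scale were Atp6v0b (869 in norm exo and 1386 in norm cell, log2 difference -0.71 ± 0.20), Laptm5 (3163 in norm exo and 5142 in norm cell, -0.76 ± 0.19), Hexa (609.9 in norm exo and 1035 in norm cell, -0.79 ± 0.22) and Atp6v1c1 (438 in norm exo and 803 in norm cell, -0.90 ± 0.21), all with adjusted p of 0.0084 or less. With quantile normalization these turned to 0.75, 0.45, 0.60 and 0.35, and Lamp1, at -1.14 on the deposited scale, turned to 0.17, so their direction between exosomes and cells is not settled. Ctsc was farthest below cells of the genes detected in norm exo (-3.27 ± 0.18, adjusted p = 1.92e-06). Laptm4b was above cells, by 4.45 ± 0.40 in norm exo (adjusted p = 2.11e-05) and 4.70 ± 0.38 in oxi exo (adjusted p = 2.5e-05), with signals of 16.4 ± 2.43 in oxi cell and 19.7 ± 7.98 in norm cell that were close to background. With scaling to spiked controls it was not called in either comparison (adjusted p = 0.433 and 0.422), and its other 2 probe sets were not above background in any array.

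The change with H2O2 was set against the same change in cells, through the differences between arrays of the same number. The difference of changes was negative and called for 7 member probe sets of 6 genes, Laptm5, Atp6v0b, Atp6v1c1, Atp6ap2, Hexa and Ctsc, and positive and called for none, against 1.47% and 0.0933% of all probe sets, with 4 positive at an unadjusted p of 0.05 and none in the methods' t-test after adjustment. The values were -2.64 ± 0.37 for Atp6v1c1 (adjusted p = 0.0078), -2.41 ± 0.24 for Laptm5 (adjusted p = 0.00372), -1.76 ± 0.34 for Atp6ap2 (adjusted p = 0.0274), and -1.73 for both Hexa and Ctsc (adjusted p = 0.0103 and 0.00874). For Atp6v0b the value came from its second probe set (-2.35 ± 0.36, adjusted p = 0.0103). Atp6v1c1, Atp6ap2, Hexa and Atp6v0b were among the genes that rose in cells, whereas Ctsc did not change there and Laptm5 fell by 0.29. None of the 7 was called without the arrays of number 1, with adjusted p of 0.0514 to 0.128 for the 5 genes by their brightest probe sets, or without those of number 2 (0.0561 to 0.183). In oxi exo, Atp6v1c1, Atp6ap2 and Ctsc were not above background on any array, so the sizes given for them depend on signals in the background.

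**Figure D5:**
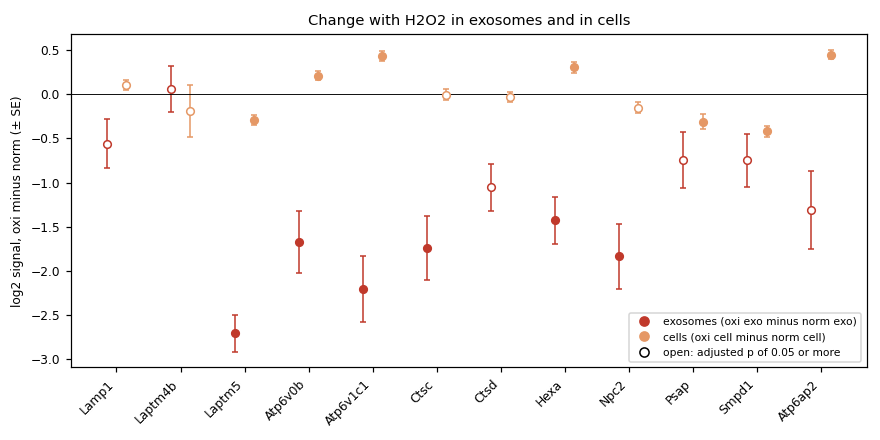
Log2 signal of oxi minus norm (vertical axis, with ± SE as bars) in exosomes (dark red) and in cells (orange) for the 11 genes detected in exosomes and Atp6ap2; filled points passed an adjusted p of 0.05 in limma. The filled cell points of Atp6v0b, Atp6v1c1, Hexa and Atp6ap2 lie above 0 (0.21 to 0.45) and their exosome points below it, and the exosome points of Atp6v1c1, Ctsc, Npc2, Psap and Atp6ap2 rest on oxi exo signals at or under background. Most of the 11 genes were detected in norm exo only, which favours exosome points below 0.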

How the data were processed

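RNA of 16 samples was hybridised to Affymetrix mouse arrays. The deposited table holds linear signal intensities that the authors computed with MAS5.0 (GCOS 1.2 in the submitters' processing notes), scaled so that the mean of every array, after trimming 2% at both ends, was 100. The study names the array 430A 2.0, whereas the file holds 45101 probe sets. A genome build was not given in the sources used here.

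After removal of 64 control probe sets, 45037 remained, and 34945 of them had a single symbol, 932 several and 9160 none. The log2 of the signals went into limma 3.58.1 (R 4.3.3), by lmFit and a trended eBayes, with a separate fit per comparison. The replicate number was a block, since the study's methods name a paired test, although same-numbered arrays did not deviate together. Benjamini-Hochberg adjustment covered all probe sets, with calls at 0.05, and adjusted p-values are limma's unless the methods' t-test is named. The difference of changes was fitted on the 8 differences of oxi minus norm. A gene was represented by its probe set of highest mean log2 signal. Where it exceeded background on no array of a group, its fold was bounded with, per array, the higher of its own signal and the background. The adjusted p given with a bound came from the fit without this replacement.

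The members, gene lists and tests were chosen with earlier results of these data known, and Laptm5 is among the genes the study picked from these arrays. Genes above background in an exosome group, called in cells in the same direction in all 4 pairs, or called in the difference of changes were given by array, and other genes and further probe sets were named after their values were seen. As alternatives the block was dropped, arrays were quantile normalized or scaled to 9 spiked control probe sets, dim probe sets were removed at the median, 100 was added before log2, signals were floored at background, arrays were weighted, the methods' t-test was used and each replicate number was left out. Removal of probe sets ending in x_at was added after seeing the data. Exact permutation tests were two-sided, and the fits were tested on simulated data. RefSeq promoters (GRCm38.p6) were not matched for 11 of the 53 genes. Tables and figures were made in Python 3.11.15 (numpy 2.4.6; pandas 2.3.3, scipy 1.17.1, matplotlib 3.10.9).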

Additional observations from a re-analysis of the deposited data

Results flagged for a closer look

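In 5 of 84 groups of 4 arrays tested, of the 21 genes described by array, a single array stood far from the other 3, and chance gives about 1 in 20. In oxi exo 2, Ctsa read 110.2 and Hexa 423, against 6.52 to 13.8 and 157 to 201 on the other oxi exo arrays. In array 4 of both exosome groups, Scarb2 read 145 in oxi exo and 133 in norm exo, all of them under background, as was the Ctsa value. In norm cell 1, Atp6v0d1 read 743, against 712 to 717 on the other norm cell arrays.

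The change with H2O2 differed between exosomes and cells for 7 probe sets, by limma on the differences within numbers. It was more negative in exosomes by -2.64 and -1.70 for the 2 brightest probe sets of Atp6v1c1, by -2.41 for Laptm5, -2.35 for the second probe set of Atp6v0b, -1.76 for Atp6ap2, -1.73 for Hexa and -1.73 for Ctsc. None of them remained past the threshold without the arrays of number 1 or of number 2, and the cause of the difference was not tested.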

How the results depend on the processing

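Members called lower in oxi exo against norm exo (8) numbered 5 with quantile normalization, 3 to 8 without a replicate number, and 0 in the methods' t-test after adjustment on either scale (17 unadjusted on linear and 14 on log2 signals). None was higher, but 7 were with signals floored at background, where the floor itself was higher in oxi exo, and 2 in the unadjusted methods' t-test on either scale. In oxi cell against norm cell, the 12 lower and 20 higher became 3 and 42 with scaling to spiked controls and 0 and 0 in the methods' t-test on either scale, and 7 to 10 and 14 to 22 without a replicate number, while Tpp1 reversed to 0.0854 with spiked controls. Members higher in norm exo than in norm cell (37) numbered 15 with quantile normalization, 0 with spiked controls, 14 above the median signal, 7 in the methods' t-test on linear signals (19 unadjusted) and 22 on log2 signals. Those higher in oxi exo than in oxi cell (39) numbered 13 with quantile normalization, 2 with spiked controls, 14 above the median and 13 in the methods' t-test on linear signals (19 unadjusted). With quantile normalization Atp6v0b (0.7505), Hexa (0.6025), Laptm5 (0.4485), Atp6v1c1 (0.3542) and Lamp1 (0.1697) reversed in norm exo against norm cell. The 7 negative differences of changes became 4 with quantile normalization, 14 with the floor, 16 with array weights, 4 without probe sets ending in x_at (an alternative chosen after seeing the data), 0 in the adjusted methods' t-test (22 unadjusted on linear and 13 on log2 signals) and 0 to 6 without a replicate number. The positive ones (0) became 1 with log2(signal + 100), 28 with the floor, and 7 and 4 in the unadjusted methods' t-test on linear and log2 signals. Unless stated, the cause was not tested.

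Same-numbered arrays had correlations of -0.0244 to 0.0353, none above 0.1, so no shared deviation was seen. Most signals of exosome arrays were background, so this check cannot exclude a common culture. Without the replicate block the counts of lower and higher members were 8 and 0 in exosomes, 13 and 21 in cells, 58 and 37 in norm exo against norm cell, 63 and 40 in oxi exo against oxi cell, and 10 and 0 for the difference of changes. The high background of the exosome arrays, 19.7 times that of cells in oxi exo and 15.2 times in norm exo, limits what could be measured in exosomes to 11 genes.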
